A study of Mus musculus with 12 samples.

Results

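The endoplasmic reticulum (ER) chaperones and the machinery that secretes collagen were followed through 40 genes, chosen by symbol for their known roles, out of the 25230 genes counted in mouse mesangial cells (MMC). They comprised 9 genes of the Hsp70 and Hsp90 chaperones and their partners (Hspa5, Hsp90b1, Hyou1, Dnajb9, Dnajb11, Dnajc3, Sdf2l1, Manf and Creld2), 2 lectin chaperones (Calr and Canx), 4 protein disulfide isomerases (Pdia3, Pdia4, Pdia6 and P4hb) and 4 genes for collagen folding (Serpinh1, Fkbp9, Fkbp10 and Fkbp14). The others were 4 genes of ER-associated degradation (Herpud1, Edem1, Sel1l and Syvn1), 6 stress sensors and transcription factors (Xbp1, Ern1, Atf6, Eif2ak3, Creb3l1 and Creb3l2), 4 translocon genes (Serp1, Ssr1, Sec61a1 and Sec61b), 5 genes of COPII export (Sec23a, Sec24d, Sec31a, Sar1a and Mia3) and 2 KDEL receptors (Kdelr2 and Kdelr3). All 40 were among the 11530 genes tested, those above 1 RPKM (reads per kilobase of exon and 1000000 counts) in at least 1 library. Earlier results of these data were known when the 40 genes were chosen. Their counts, set beside shares of all genes, thus describe the list and are no blind test.

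MMC hold the capillary loops of the kidney glomerulus together and make much of its matrix. They were grown from pooled glomeruli of wild-type (WT) mice and of mice homozygous for lncMGC-KO5, a Cas9 deletion at the start of the long non-coding RNA lncMGC, made in C57BL/6J embryos. The KO cells came from this line only, and the number of mice behind the libraries is not given in the sources used here. Control cells were serum-depleted (SD) and received no TGF-β, the others received 10 ng/ml TGF-β, and the labels give 24 h for every library. This made 4 groups, named for genotype and treatment (KO-TGF, KO-SD, WT-TGF and WT-SD), with 3 RNA-seq libraries in each. lncMGC has no entry in the gene counts used here, which leaves the deletion unchecked in these libraries, and directions for KO follow their labels. The paper reports that the deletion was checked by sequencing in the mice. Rian and Mirg, other RNAs of the locus that share exons with lncMGC, were counted and were not lower in KO. Rian was at 40.1 to 45.2 CPM (counts per 1000000 counts of a library) in WT-SD, 72.7 to 79.1 in WT-TGF, 69.2 to 70.9 in KO-SD and 94.3 to 105.2 in KO-TGF, and Mirg at 2.14 to 2.69, 3.45 to 3.75, 3.31 to 4.30 and 3.64 to 4.65 CPM. The paper reports both RNAs as decreased in KO5 cells by quantitative PCR, which these counts do not show. The cause of this difference, and whether their counts read the deletion, was not tested.

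Proteins bound for secretion enter the ER through the Sec61 translocon, fold with the help of Hsp70 and Hsp90 chaperones, lectin chaperones and disulfide isomerases, and leave in COPII coated vesicles, while misfolded chains are sent to the proteasome. Procollagen needs in addition proline hydroxylation, proline isomerases and the collagen chaperone HSP47, encoded by Serpinh1, and it is too large for an ordinary COPII vesicle without cargo receptors such as TANGO1, encoded by Mia3. When unfolded proteins build up, the sensors IRE1 (Ern1), ATF6 and PERK (Eif2ak3) start the unfolded protein response, which raises transcription of chaperone genes through XBP1 and ATF6. These factors are known to act through DNA elements, the ER stress element (ERSE), its second form (ERSE-II) and the unfolded protein response element (UPRE). TGF-β is a main inducer of collagen in mesangial cells.

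The promoter letters of the genes are shown first. The letters were not read when the genes were chosen, but the genes were chosen for known roles, and the chaperones are textbook carriers of these elements. Shares above those of all genes are thus built in by the choice and are no independent result. RefSeq promoter windows, from 250 bases before to 50 bases after the annotated start on GRCm38.p6 (the assembly of mm10), were at hand for 33 of the 40 genes and were searched on both strands for ERSE (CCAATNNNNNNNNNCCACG), ERSE-II (ATTGGNCCACG) and the UPRE core (TGACGTGG). ERSE was found in 8 of the 33 (24.2%), against 0.137% of the 27025 genes with a window. ERSE-II was found in 2 of the 33 (6.06%) against 0.0444%, and the UPRE core in 3 (9.09%) against 0.714%. No gene carried more than a single kind of element, so 13 of the 33 (39.4%) held any of the 3 elements, against 0.884% of all genes with a window and 1.29% of the tested genes with a window. The sites are written 5′ to 3′ on the strand of the gene with 8 flanking bases on each side, and capitals mark the element or its reverse complement. They are shown for every gene with a match.
Hspa5, ERSE, plus strand, chr2:34772017-34772051: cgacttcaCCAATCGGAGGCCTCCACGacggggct
Hsp90b1, distal ERSE, minus strand, chr10:86705630-86705664: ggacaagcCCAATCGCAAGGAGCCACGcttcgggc
Hsp90b1, proximal ERSE in reverse, minus strand, chr10:86705525-86705559: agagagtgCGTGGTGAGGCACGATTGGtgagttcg
Dnajc3, ERSE, plus strand, chr14:118937819-118937853: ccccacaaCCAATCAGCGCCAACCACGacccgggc
Creld2, ERSE in reverse, plus strand, chr15:88819512-88819546: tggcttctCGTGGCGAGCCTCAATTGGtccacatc
Calr, ERSE in reverse, minus strand, chr8:84847067-84847101: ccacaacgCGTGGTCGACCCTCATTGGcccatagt
Canx, ERSE, minus strand, chr11:50325792-50325826: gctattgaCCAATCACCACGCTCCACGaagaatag
Pdia6, ERSE, plus strand, chr12:17266483-17266517: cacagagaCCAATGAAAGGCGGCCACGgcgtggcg
Syvn1, ERSE, plus strand, chr19:6046524-6046558: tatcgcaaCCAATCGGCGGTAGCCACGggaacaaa
Dnajb11, ERSE-II, plus strand, chr16:22857844-22857870: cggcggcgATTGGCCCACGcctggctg
Herpud1, ERSE-II, plus strand, chr8:94386369-94386395: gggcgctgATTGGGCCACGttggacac
Sec23a, UPRE core, minus strand, chr12:59011996-59012019: ctccccttTGACGTGGcagaggcg
Sec24d, UPRE core, plus strand, chr3:123267462-123267485: cgggcgccTGACGTGGcactagca
Kdelr3, UPRE core in reverse, plus strand, chr15:79516370-79516393: ccgccccgCCACGTCAccgcgcgg
For Hspa5, the chaperone that gives the unfolded protein response its best known readout, the whole stretch before the start is given (plus strand, chr2:34771840-34772089), with the ERSE in capitals.
Hspa5 upstream: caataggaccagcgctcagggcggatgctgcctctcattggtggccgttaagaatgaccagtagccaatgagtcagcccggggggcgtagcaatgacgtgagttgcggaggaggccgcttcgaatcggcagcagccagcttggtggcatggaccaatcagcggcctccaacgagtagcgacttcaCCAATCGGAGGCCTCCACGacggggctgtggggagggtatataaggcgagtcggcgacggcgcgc
The window of Sec24d belongs to a start inside the annotated span of the gene. The other 20 genes with a window had none of these letters in it, which says nothing of elements elsewhere or of looser matches.

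**Figure D1:**
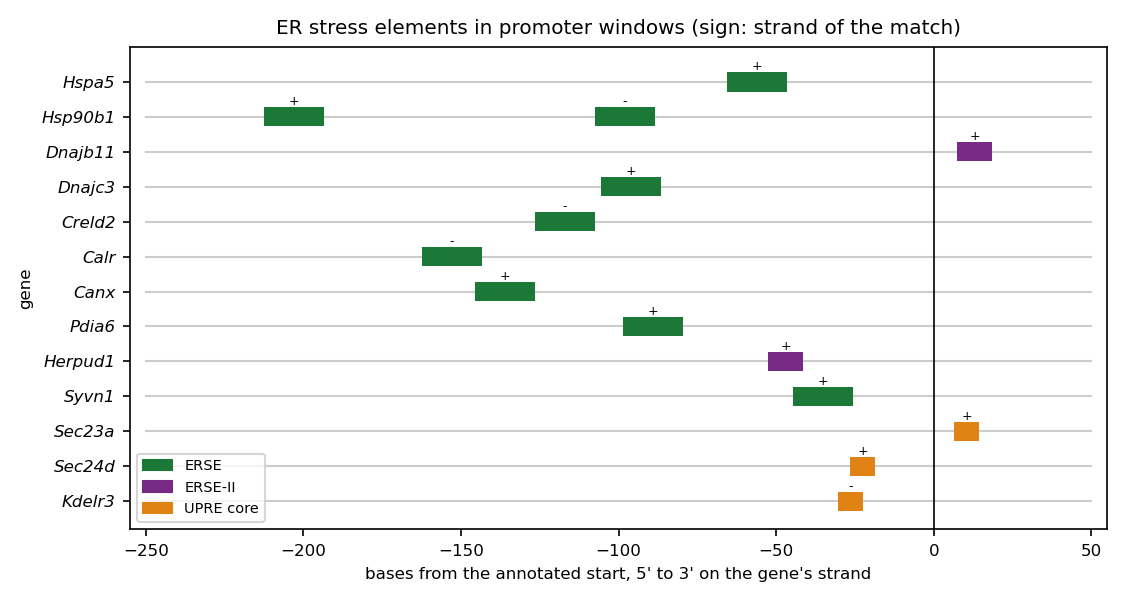
Positions of the 3 ER stress elements in the RefSeq promoter windows of the 13 genes that hold any of them. The x axis gives bases from the annotated start on the strand of the gene, bars span each match, and the sign above a bar gives the strand of the match relative to the gene. ERSE matches lie between -212 and -26, and the matches of Dnajb11 and Sec23a start at 8 and 7 bases after the start.

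Each library held between 19898050 and 22827706 counts on genes, and the lowest count of any of the 40 genes in any library was 276, so none of the 40 was near the floor of detection. Levels are given as CPM, counts per 1000000 counts of the library, with library sizes adjusted by TMM, a factor that centers most genes between libraries. The spread between the 3 libraries of a group was small for these genes, with a median coefficient of variation of 1.77% in WT-SD, 1.74% in WT-TGF, 2.31% in KO-SD and 1.81% in KO-TGF, and at most 13.7%, for Dnajb9 in KO-SD. Over all genes KO-SD replicate 1 stood apart from the other libraries of its group, as the chi-square of its counts, divided by the degrees of freedom, was 5.41 against replicate 2 and 5.10 against replicate 3, while every other pair within a group gave 1.35 to 3.05. Without it 33 of the 40 genes were called higher and 2 lower in KO in SD, 39 rose in KO, and 5 responses were larger and 9 smaller in KO. Nothing in the labels says that the libraries of a group came from separate cultures, so the p-values measure the spread between these libraries, which may be technical. Calls were made at FDR <5% with the quasi-likelihood test of edgeR, fitted to the 12 libraries together, with p-values adjusted over the 11530 genes by Benjamini-Hochberg. For 1 gene with 3 libraries on each side, permutation (exact) gives p = 0.1 at the lowest.

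Markers were read to check the cell type and moved with genotype and treatment. The 8 mesangial and smooth muscle markers summed to 2620 to 2772 CPM in WT-SD and 5811 to 5966 in WT-TGF. For KO their sum was 5101 to 5279 CPM in SD and 11070 to 11150 under TGF-β. Acta2 and Tagln made up most of it, with means of 1567 and 714 CPM in WT-SD, and of 6288 and 3915 in KO-TGF. Of the 7 markers tested, 6 were higher and 1 lower in KO in SD, and 5 higher and 2 lower under TGF-β. Des, which encodes desmin, had a mean of 7.67 CPM in WT-SD against 0.529 CPM in KO-SD. Under TGF-β, Pdgfrb had a mean of 384 CPM for WT against 358 for KO. Itga8, which was not tested, had 1.61 against 0.638. The 6 macrophage markers summed to 25.6 to 27.9 CPM in WT-SD, 15.6 to 19.3 in WT-TGF, 2.06 to 2.22 in KO-SD and 0.802 to 1.45 in KO-TGF, and Adgre1 was at 0 in every KO library. The 6 tubular markers summed to 45.7 to 48.7 CPM in WT-SD, 11.96 to 12.89 in WT-TGF, 16.6 to 19.3 in KO-SD and 3.69 to 4.07 in KO-TGF, of which Lrp2 made up 41.6 to 44.4 CPM in WT-SD, with Slc34a1 and Umod at 0 in every library, while Aqp1 was higher in KO in SD, at 3.73 to 4.51 CPM in WT-SD and 6.29 to 7.24 in KO-SD. The 6 endothelial markers summed to at most 1.21 CPM in any library. These sums move with the comparisons below, and their part in the results was not tested. In such bulk libraries, fewer cells of a type and less RNA per cell cannot be told apart.

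The 40 genes took between 1.107% and 1.121% of all counts in the WT-SD libraries, 1.57% to 1.58% in WT-TGF, 1.34% to 1.35% in KO-SD and 1.79% to 1.80% in KO-TGF, and no 2 groups overlapped. For comparison with their cargo, 10 collagen genes took 1.76% to 1.86% in WT-SD, 2.76% to 2.84% in WT-TGF, 2.72% to 2.97% in KO-SD and 4.15% to 4.21% in KO-TGF. On the level per exon length, Serpinh1 stood first of the 40 in all 4 groups, with a mean of 499.7 RPKM in WT-SD and 1166 RPKM in KO-TGF. Behind it came Pdia3, Canx, P4hb, Hsp90b1, Calr and Hspa5 in WT-SD, between 136 and 224 RPKM. The sensors Ern1 (3.79 RPKM in WT-SD), Eif2ak3 (9.11) and Atf6 (10.8) were among the lowest. The exon length matched to Mia3 (4431 bases) was not checked against a full model of the gene, so its RPKM is uncertain. In mean CPM, 38 of the 40 were above the median of all genes tested, which was 31.5 CPM.

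**Figure D2:**
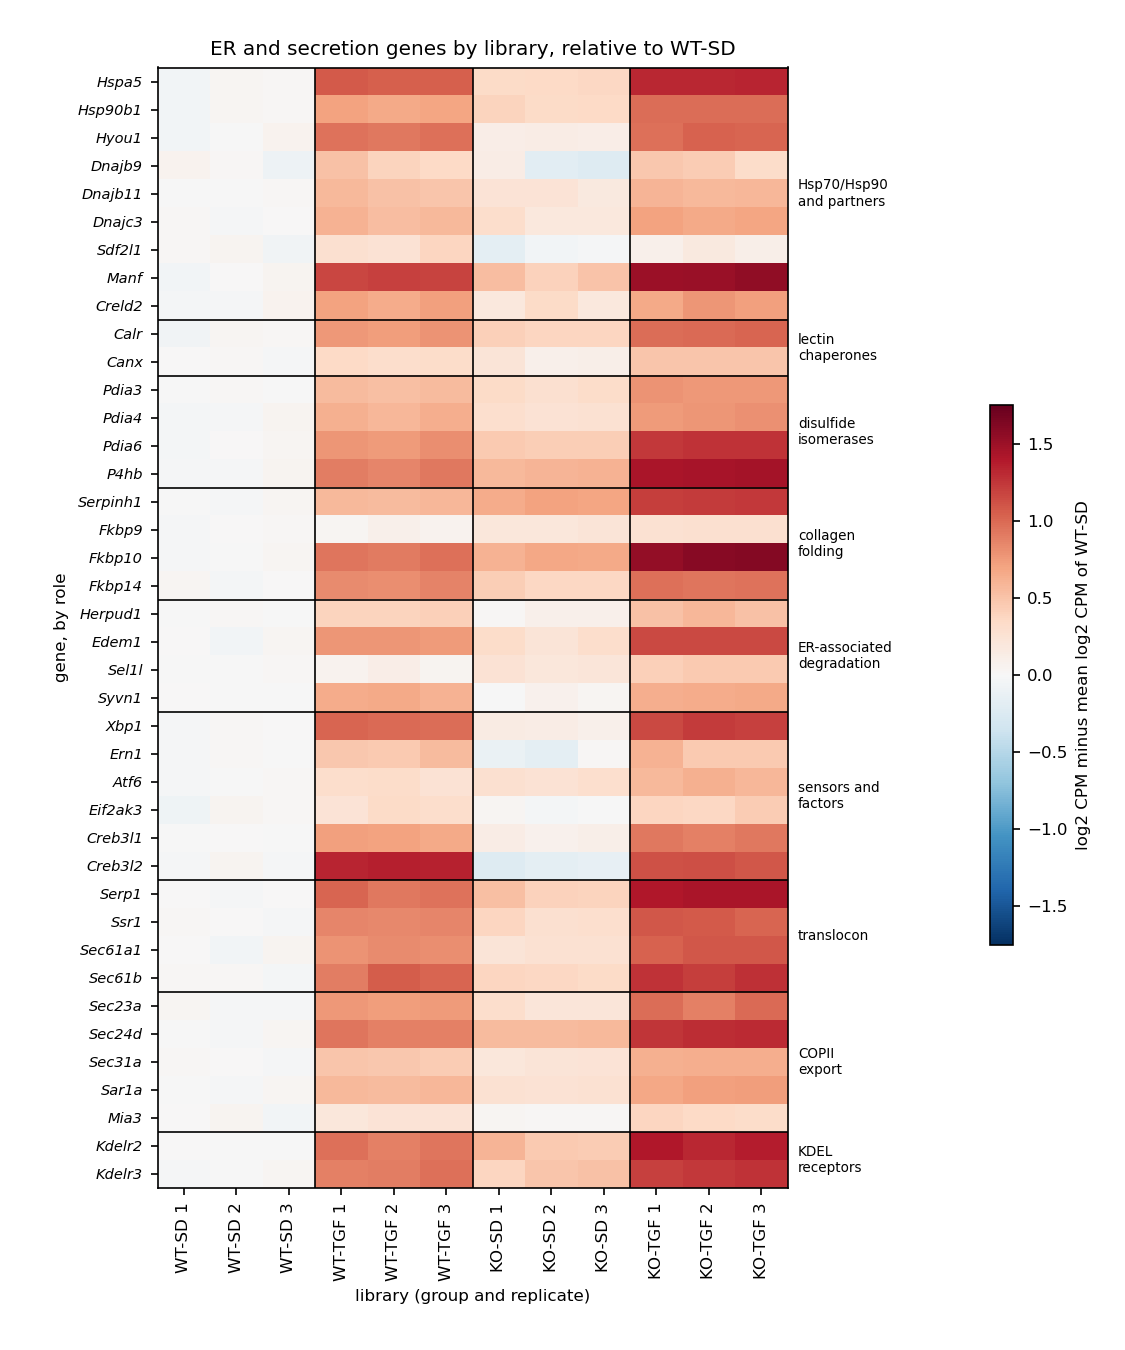
Level of the 40 genes in each of the 12 libraries as log2 CPM minus the mean log2 CPM of the 3 WT-SD libraries, with genes in rows by role and libraries in columns by group. Red is above and blue below WT-SD. The TGF-β libraries of both genotypes are red, palest for Fkbp9 and for Sel1l in WT-TGF, the KO-SD libraries are paler red in most rows, and Creb3l2 is blue in all 3 of them.

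The question of the TGF-β comparison is how the secretion machinery moves when mesangial cells are driven to make matrix. In WT MMC, all 40 genes rose at FDR <5%, by a log2 fold change between 0.06 (Fkbp9) and 1.34 (Creb3l2) with a median of 0.69, although with sizes left unadjusted (scaling by library size alone) Fkbp9 (-0.10) and Sel1l (-0.08) fell. Of all genes tested, 36.0% rose and the median log2 fold change was -0.0049. Creb3l2, Manf and Hspa5 rose more than 2-fold, as did 4.15% of all genes tested. In all 40, every WT-TGF library lay above every WT-SD library, whereas libraries of the groups did not overlap for 75.1% of all genes. In KO MMC, all 40 again rose, by 0.07 (Fkbp9) to 1.29 (Creb3l2) with a median of 0.61, although with scaling by library size alone Fkbp9 (-0.14) and Sdf2l1 (-0.01) changed sign and Sdf2l1 and Sel1l (0.02) were not called. Of all genes tested, 34.9% rose, with a median of -0.03. Creb3l2, Xbp1 and Manf rose more than 2-fold, as did 4.38% of all genes tested, and no libraries of the groups overlapped for any of the 40, a separation that 74.3% of all genes had. Scaling by library size alone lowers the median of all genes to -0.16 in WT and -0.23 in KO. Relative to that median all 40 rose in both genotypes, as with TMM. The scaling shifts all genes of a contrast by nearly the same amount, so this is no separate check. The calls of Fkbp9 and Sel1l in WT were also lost when single libraries were left out, Fkbp9 in 5 and Sel1l in 3 of the 12 cases, and that of Sdf2l1 in KO was lost without KO-SD replicate 1.

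**Figure D3:**
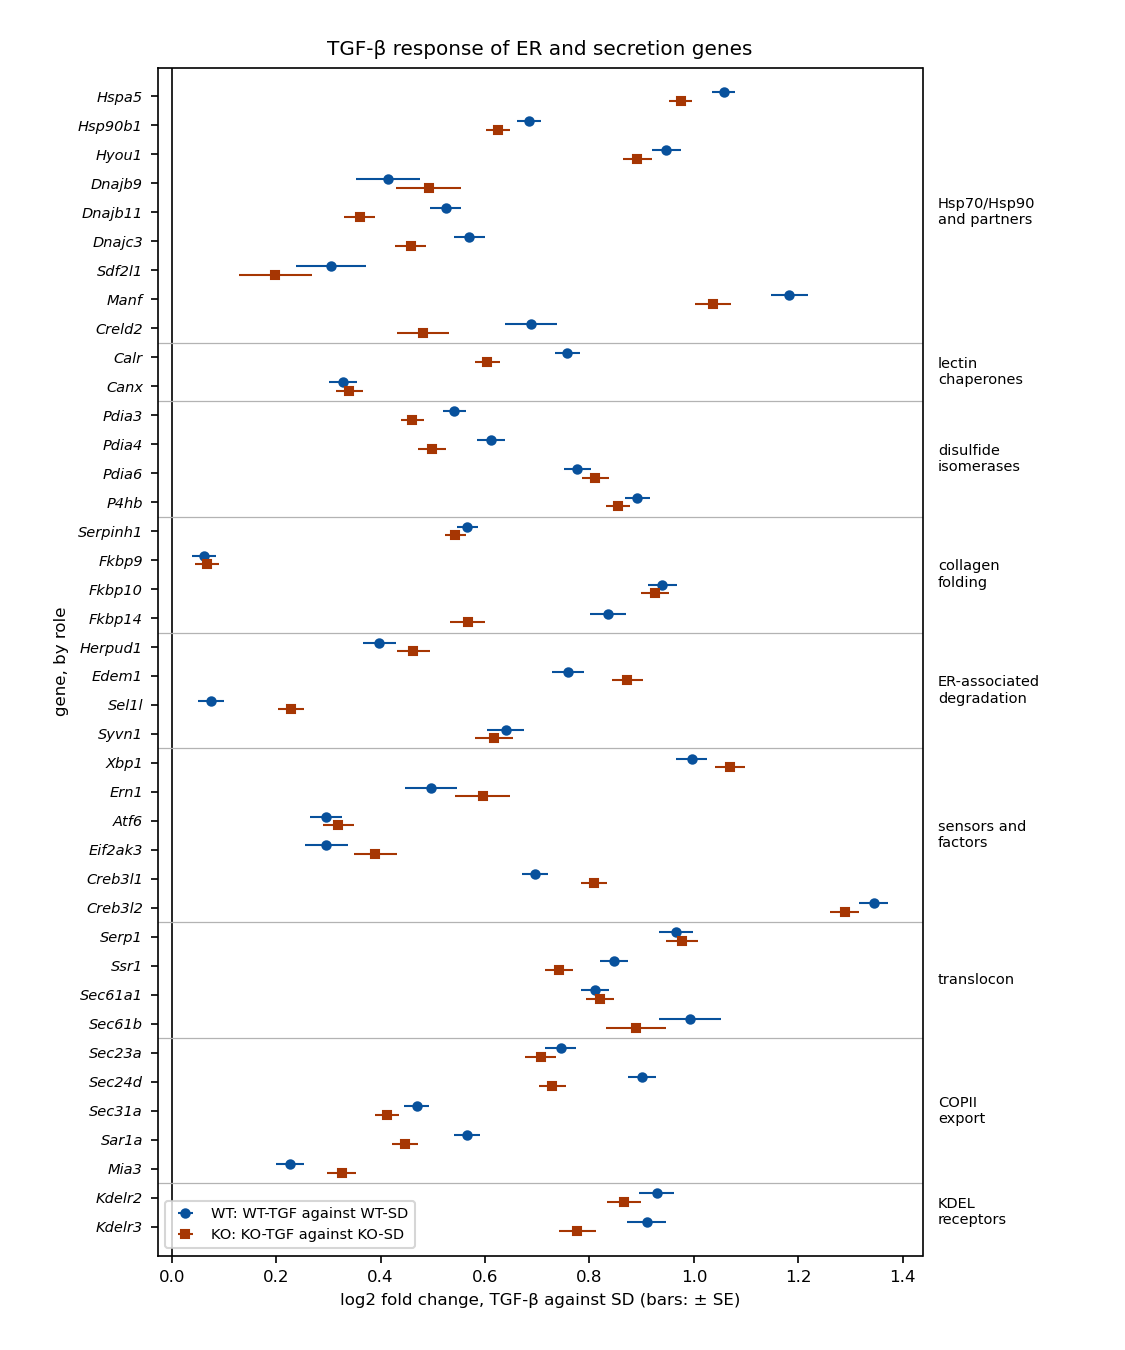
TGF-β response of each gene as log2 fold change in WT (circles, WT-TGF against WT-SD) and in KO (squares, KO-TGF against KO-SD), with bars for ± SE of the fit of all 12 libraries and genes in rows by role. All symbols lie right of 0, Fkbp9 and, in WT, Sel1l lie nearest to it, and Creb3l2 lies farthest in both genotypes.

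The comparison of genotypes asks whether loss of lncMGC changes these genes at rest and under TGF-β. In SD, 32 of the 40 genes were higher in KO than in WT, 1 (Creb3l2) was lower and 7 were not called, with a median log2 fold change of 0.26. Of all genes tested, 30.9% were higher and 25.2% lower, with a median of 0.02. None of the 40 differed more than 2-fold, as 3.20% of all genes did upward and 3.24% downward. Libraries of the groups did not overlap for 34 of the 40 and for 59.2% of all genes. Under TGF-β, 31 were higher in KO, 2 (Creb3l2 and Sdf2l1) lower and 7 not called, with a median of 0.21, against 27.3% and 27.8% of all genes and a median of -0.0036. Again none differed more than 2-fold, as 1.38% of all genes did upward and 4.68% downward. Here 36 of the 40 did not overlap, against 61.5% of all genes. The summed CPM of a role was most unequal for collagen folding, with a ratio of KO to WT of 1.48 in SD and 1.48 under TGF-β, and least for the sensors and factors, with 1.04 and 1.05. Summed over all 40 genes the ratios were 1.27 and 1.24. In total, 29 of the 40 genes were higher in KO in both conditions. The share of all genes higher in both was not counted, and it cannot exceed the 27.3% that were higher under TGF-β. With scaling by library size alone, which lowers the median of all genes to -0.06 in SD and -0.13 under TGF-β, 29 genes were higher and 3 lower in SD, and 23 were higher and 5 lower under TGF-β. Relative to the median of all genes, 35 in SD and 37 under TGF-β lay above it with either scaling. The choice of scaling shifts all genes of a contrast by nearly the same amount, so these counts are no separate check of it. Scaling by library size alone turned the sign from higher to lower in KO under TGF-β for 8 genes (Hyou1, Dnajb11, Dnajc3, Creld2, Fkbp14, Syvn1, Ern1 and Eif2ak3) and in SD for 3 (Herpud1, Syvn1 and Mia3). WT and KO cells came from different cultures, and genotype and culture cannot be told apart. The macrophage markers were lower in KO in the same comparisons, from 25.6 to 27.9 CPM in WT-SD to 2.06 to 2.22 CPM in KO-SD. So were Podxl, Wt1 and Synpo, genes known from podocytes, with log2 fold changes in SD of -1.58, -1.97 and -0.63. The part of these markers in the result was not tested.

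**Figure D4:**
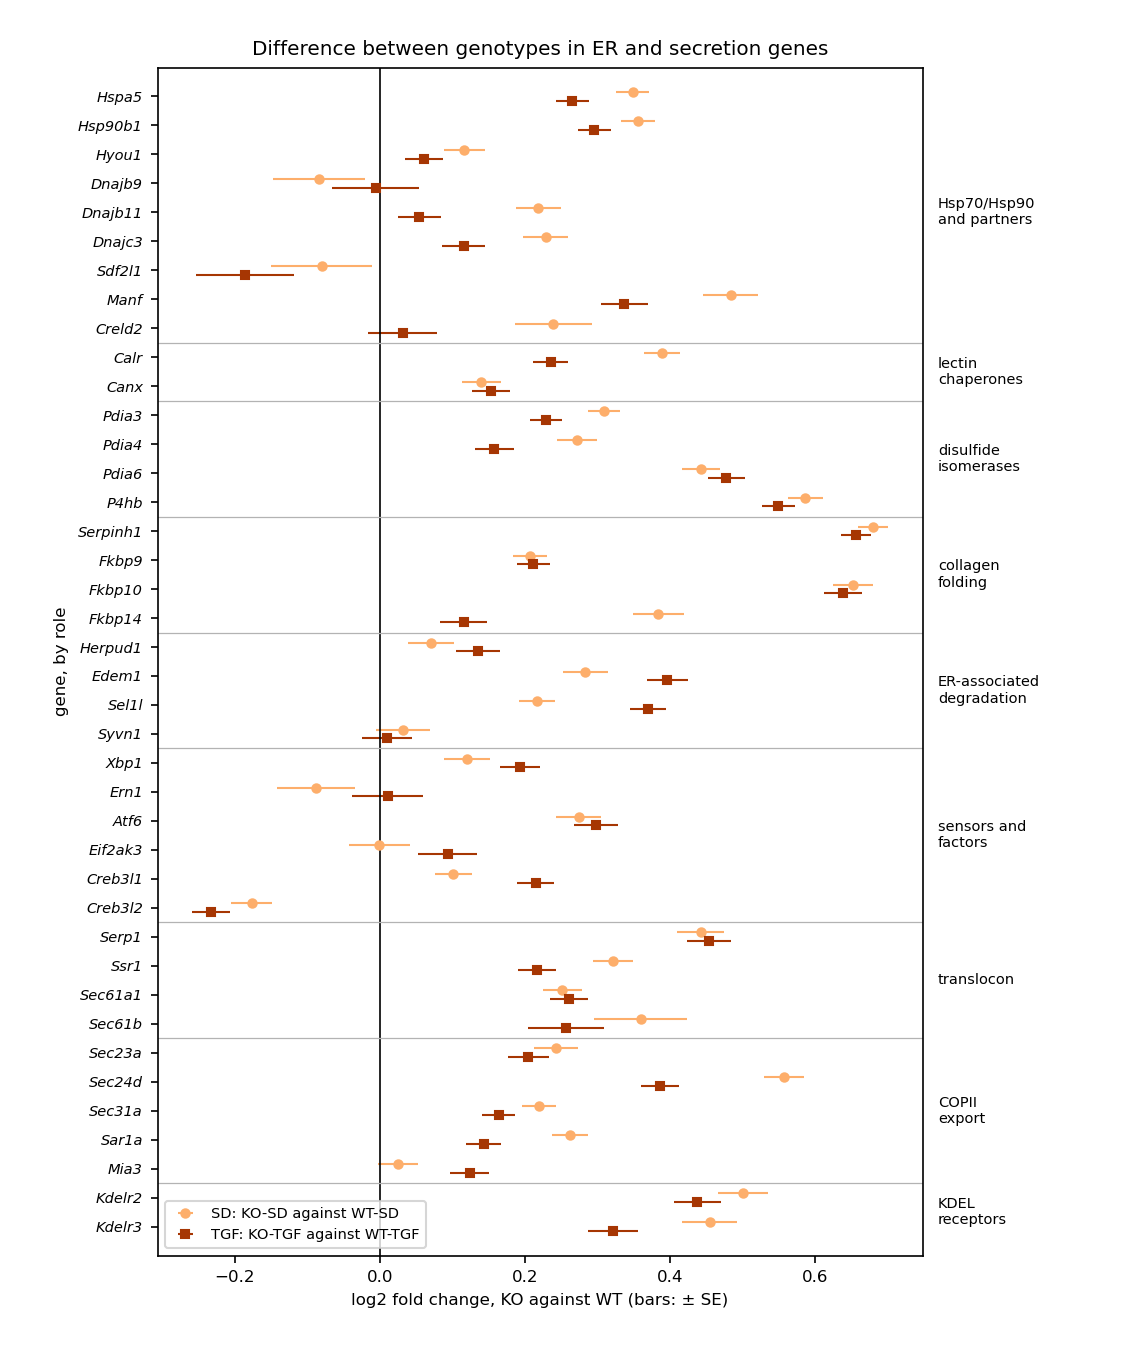
Difference between genotypes for each gene as log2 fold change, KO against WT, in SD (circles) and under TGF-β (squares), with bars for ± SE of the fit and genes in rows by role. Most symbols lie right of 0, Serpinh1, Fkbp10 and P4hb lie farthest right in both conditions, and Creb3l2 lies left of 0 in both.

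Whether the TGF-β response itself differed between genotypes was tested by the interaction, the log2 response in KO minus that in WT. Of the 40 genes, 9 had a smaller response in KO (Calr, Creld2, Dnajb11, Fkbp14, Manf, Pdia4, Sar1a, Sec24d and Ssr1), 3 a larger one (Creb3l1, Edem1 and Sel1l) and 28 passed in neither direction. Among all genes tested 16.6% had a smaller and 8.67% a larger response, so these shares were near the background. The differences were small, from -0.27 (Fkbp14) to 0.15 (Sel1l), and with scaling by library size alone 1 response was larger and 17 smaller, while DESeq2 called 4 and 4. Leaving out any KO-TGF library gave 3 or 4 smaller responses, and leaving out WT-TGF replicate 3 gave 5. The larger responses became 5 when KO-SD or KO-TGF lost replicate 1, and became 1 when WT-TGF lost replicate 3 or KO-SD lost replicate 2. Fkbp14, Sec24d, Calr and Sel1l were called in all 18 alternatives. Across the 40 genes the log2 responses of the genotypes had a Pearson r of 0.943 and a Spearman rho of 0.945, a description over genes that are not independent and share the libraries. The response was larger in WT for 25 genes and in KO for 15.

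All 9 genes of the Hsp70 and Hsp90 chaperones and their partners rose with TGF-β in both genotypes, with a median log2 fold change of 0.68 in WT and 0.49 in KO. In KO against WT, 7 of the 9 were higher in SD, and 4 were higher and 1 lower under TGF-β. Of all genes tested, 36.0% rose in WT and 34.9% in KO, 30.9% were higher in KO in SD, and 27.3% were higher and 27.8% lower under TGF-β. Hspa5 (NCBI gene 14828, chromosome 2, 34772090 to 34776529 on GRCm38.p6) encodes BiP, the Hsp70 chaperone of the ER. It was at 556, 586 and 581 CPM (WT-SD), 1214, 1184 and 1189 CPM (WT-TGF), 726, 729 and 738 CPM (KO-SD) and 1434, 1431 and 1445 CPM (KO-TGF). The 4 groups did not overlap, and it rose with TGF-β 2.08-fold in WT (log2 fold change 1.06, SE 0.0226, edgeR adjusted p = 6.31e-27) and 1.97-fold in KO (0.97, SE 0.0225, adjusted p = 3.52e-26). It was higher in KO by 0.35 in SD (adjusted p = 2.83e-14) and 0.27 under TGF-β (adjusted p = 1.04e-11), on the log2 scale. Manf encodes a small BiP-binding protein that stressed cells also secrete. It was at 54.4, 56.3 and 57.98 CPM (WT-SD), 127, 129 and 128 CPM (WT-TGF), 81.8, 74.6 and 79.4 CPM (KO-SD) and 159, 160.0 and 165 CPM (KO-TGF). Manf rose with a log2 fold change of 1.18 (SE 0.0362) in WT and 1.04 (SE 0.0346) in KO, and the difference of -0.15 was called (edgeR adjusted p = 0.0304), a call lost in 9 of 18 alternatives, among them DESeq2. Sdf2l1, a partner of the ER DnaJ proteins, was low and moved little. It was at 14.5, 14.7 and 13.7 CPM (WT-SD), 17.4, 17.1 and 18.6 CPM (WT-TGF), 12.7, 13.8 and 14.2 CPM (KO-SD) and 15.2, 16.1 and 15.4 CPM (KO-TGF). The KO-TGF libraries lay below all WT-TGF libraries (log2 fold change -0.19, adjusted p = 0.02), a call lost with DESeq2 and without WT-TGF replicate 3 or KO-TGF replicate 1 or 3, while in SD the genotypes overlapped (-0.08, adjusted p = 0.342). Creld2, an ER stress gene with 1 of the ERSE sites above, was at 25.3, 25.5 and 26.9 CPM (WT-SD), 42.2, 40.5 and 42.6 CPM (WT-TGF), 29.4, 32.8 and 29.5 CPM (KO-SD) and 41.1, 44.2 and 42.6 CPM (KO-TGF). Its log2 response was 0.69 in WT and 0.48 in KO (edgeR adjusted p = 0.0295 for the difference, lost in 9 of 18 alternatives), and the TGF-β libraries of the genotypes overlapped.

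The other partners of Hspa5 and Hsp90b1 followed with different reach. Hsp90b1, the Hsp90 of the ER (GRP94), rose from 788 ± 25.2 to 1267 ± 19.5 CPM in WT (± standard deviation, n = 3) and from 1008 ± 20.6 to 1555 ± 1.83 CPM in KO, and was higher in KO by 0.36 in SD and 0.30 under TGF-β on the log2 scale. Hyou1, a nucleotide exchange factor of BiP, had a log2 response of 0.95 in WT and 0.89 in KO, close to Hspa5, but was higher in KO by only 0.12 in SD (edgeR adjusted p = 0.000834), a call lost with scaling by library size alone. Under TGF-β its difference of 0.06 was not called (adjusted p = 0.0553), although its libraries did not overlap and 7 of 19 alternatives, DESeq2 among them, called it higher. Scaling by library size alone called Hyou1 lower in KO there (-0.06). The DnaJ cochaperones Dnajb9, Dnajb11 and Dnajc3 rose by 0.41, 0.52 and 0.57 in WT and by 0.49, 0.36 and 0.46 in KO. Dnajb9 did not separate the genotypes in either condition (-0.08 in SD, adjusted p = 0.266, called lower only if KO-SD replicate 1 is left out or library size alone is the scale, and -0.01 under TGF-β, adjusted p = 0.942). Dnajb11 was higher in KO in SD (0.22) and not called under TGF-β (0.05, adjusted p = 0.125), and Dnajc3 was higher in both (0.23 and 0.12). With scaling by library size alone, under TGF-β Dnajb11 was called lower in KO (-0.07) and Dnajc3 was no longer higher (-0.01).

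The lectin chaperones hold glycoproteins by their sugar until they fold, and both rose in both genotypes and were higher in KO in both conditions. Calr (calreticulin) rose from 547 ± 18.6 to 925 ± 16.5 CPM in WT (± standard deviation, n = 3) and from 717 ± 10.2 to 1090 ± 13.1 CPM in KO, and was higher in KO by 0.39 and 0.24 on the log2 scale. Canx (calnexin), its membrane-bound relative, had the smaller changes, 0.33 in WT and 0.34 in KO with TGF-β and 0.14 and 0.15 between the genotypes, the last of which was not called with scaling by library size alone (0.03). The disulfide isomerases form and shuffle the disulfide bonds of secreted proteins, and all 4 rose in both genotypes and were higher in KO in both conditions. Of all genes tested, 36.0% rose in WT and 34.9% in KO, and 30.9% were higher in KO in SD and 27.3% under TGF-β. P4hb, which is also the β subunit of the prolyl 4-hydroxylase of collagen, was at 591, 592 and 623 CPM (WT-SD), 1120, 1093 and 1137 CPM (WT-TGF), 889, 909 and 914 CPM (KO-SD) and 1617, 1631 and 1655 CPM (KO-TGF). No groups of P4hb overlapped, its log2 response was 0.89 in WT and 0.85 in KO, and its difference between the genotypes was 0.59 (SE 0.0236, edgeR adjusted p = 1.85e-19) in SD and 0.55 (SE 0.0232, adjusted p = 6.41e-19) under TGF-β. Pdia3, Pdia4 and Pdia6 rose by 0.54, 0.61 and 0.78 in WT and by 0.46, 0.50 and 0.81 in KO. Pdia6 differed most of these 3 between the genotypes, by 0.44 in SD and 0.48 under TGF-β, against 0.31 and 0.23 for Pdia3 and 0.27 and 0.16 for Pdia4, whose call under TGF-β was lost with scaling by library size alone (0.04).

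The 4 genes for collagen folding rose in both genotypes, as 36.0% of all genes did in WT and 34.9% in KO. Their median log2 fold change was 0.70 in WT and 0.56 in KO. All 4 were higher in KO, with a median of 0.52 in SD and 0.43 under TGF-β, while 30.9% and 27.3% of all genes were higher. Serpinh1 and Fkbp10 had the largest differences between the genotypes of all 40 genes. Serpinh1 (NCBI gene 12406, chromosome 7, 99345375 to 99353239 on GRCm38.p6) encodes HSP47, a chaperone dedicated to collagen. It was at 1213, 1204 and 1245 CPM (WT-SD), 1808, 1784 and 1829 CPM (WT-TGF), 1921, 1980 and 1963 CPM (KO-SD) and 2817, 2840 and 2889 CPM (KO-TGF). KO-SD lay above WT-TGF in every library, so the untreated KO libraries had higher Serpinh1 CPM than the treated WT libraries. The difference between genotypes was 1.60-fold in SD (log2 fold change 0.68, SE 0.0207, edgeR adjusted p = 1.67e-22) and 1.58-fold under TGF-β (0.66, SE 0.0205, adjusted p = 3.64e-22), while the log2 responses of 0.57 in WT and 0.54 in KO were not called different (adjusted p = 0.629). The same order of KO-SD above WT-TGF held in all libraries for only 2 more of the 40 genes, Fkbp9 and Sel1l, while Atf6 overlapped and the other 36 were lower in KO-SD than in WT-TGF. The share of all genes in either order was not counted. Fkbp10, a prolyl isomerase of the ER needed for collagen, was at 142, 143 and 147 CPM (WT-SD), 276, 272 and 281 CPM (WT-TGF), 220.0, 230.1 and 229 CPM (KO-SD) and 419.6, 433 and 438 CPM (KO-TGF). It rose with TGF-β by 0.94 in WT and 0.93 in KO and was higher in KO by 0.65 in SD (SE 0.0279, edgeR adjusted p = 8.85e-19) and 0.64 under TGF-β (SE 0.0262, adjusted p = 2.98e-19). No groups of Fkbp10 overlapped. Fkbp9, of the same family, rose by the least with TGF-β, from 443 ± 4.97 to 463 ± 7.86 CPM in WT (± standard deviation, n = 3) and from 512 ± 6.36 to 536 ± 3.83 CPM in KO, and was higher in KO by 0.21 and 0.21 on the log2 scale. Fkbp14 (NCBI gene 231997, chromosome 6, 54577602 to 54597344), another isomerase, had the largest difference in response among the 40. It was at 64.8, 61.6 and 63.4 CPM (WT-SD), 112, 111 and 115 CPM (WT-TGF), 85.3, 81.2 and 81.2 CPM (KO-SD) and 124, 121 and 122 CPM (KO-TGF). Its log2 response was 0.84 in WT and 0.57 in KO, a difference of -0.27 (SE 0.0481, edgeR adjusted p = 6.46e-05). The KO libraries were higher by 0.38 in SD and by 0.12 under TGF-β, the latter call lost with scaling by library size alone.

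ER-associated degradation takes misfolded chains out of the ER. Its 4 genes rose in both genotypes, as 36.0% of all genes did in WT and 34.9% in KO. Their median log2 fold change was 0.52 in WT and 0.54 in KO. In KO, 2 were higher in SD and 3 under TGF-β, against 30.9% and 27.3% of all genes. Edem1, which trims mannose from misfolded chains, was at 94.4, 90.9 and 95.6 CPM (WT-SD), 159.8, 159 and 156 CPM (WT-TGF), 116, 109 and 116 CPM (KO-SD) and 208, 209 and 208 CPM (KO-TGF). Edem1 rose by 0.76 in WT and 0.87 in KO, a difference just past the threshold (0.11, edgeR adjusted p = 0.0499) and lost with scaling by library size alone, either other filter, the likelihood ratio test and 6 of the 12 cases of a library left out. Sel1l, the adaptor of the Hrd1 ubiquitin ligase, was at 296, 297 and 303 CPM (WT-SD), 311, 323 and 309 CPM (WT-TGF), 355, 342 and 344 CPM (KO-SD) and 399, 411 and 409.7 CPM (KO-TGF). In WT its log2 response was 0.08 (SE 0.0254, adjusted p = 0.00954) and in KO 0.23 (SE 0.0252, adjusted p = 1.90e-09), with an edgeR adjusted p = 0.0015 for the difference. Syvn1, which encodes Hrd1 itself, rose in step in both genotypes (0.64 and 0.62) and did not separate them (0.03 in SD, adjusted p = 0.496, and 0.01 under TGF-β, adjusted p = 0.821). With scaling by library size alone, Syvn1 was called lower in KO under TGF-β (-0.11). Herpud1, a scaffold of the same complex, rose by 0.40 and 0.46. It was higher in KO under TGF-β (0.14, adjusted p = 0.0004, lost with scaling by library size alone) and not called in SD (0.07, adjusted p = 0.0629), where both other filters and the fit without KO-SD replicate 1 called it.

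Among the sensors and their transcription factors, all 6 rose with TGF-β in both genotypes, with a median log2 fold change of 0.60 in WT and 0.70 in KO. In KO, 3 (Xbp1, Atf6 and Creb3l1) were higher and Creb3l2 lower in both conditions. Of all genes tested, 36.0% rose in WT and 34.9% in KO. Between the genotypes, 30.9% of all genes were higher in KO and 25.2% lower in SD, and 27.3% higher and 27.8% lower under TGF-β. Creb3l2 (NCBI gene 208647, chromosome 6, 37327255 to 37442276) encodes a membrane-bound factor cleaved under ER stress, known for driving Sec23a in cartilage. It was at 155, 163 and 155 CPM (WT-SD), 398, 404 and 400.1 CPM (WT-TGF), 135, 141 and 143 CPM (KO-SD) and 341, 345 and 336 CPM (KO-TGF). It rose 2.54-fold in WT (log2 fold change 1.34, SE 0.0272, edgeR adjusted p = 1.45e-27) and 2.44-fold in KO (1.29, SE 0.0278, adjusted p = 5.95e-27). It was the only gene of the 40 called lower in KO in both conditions, with a log2 fold change of -0.18 in SD (adjusted p = 4.41e-06) and -0.23 under TGF-β (adjusted p = 5.62e-09), and no KO library reached the WT libraries of the same treatment. Its relative Creb3l1 (OASIS), which drives Col1a1 in bone, was at 219, 221 and 218 CPM (WT-SD), 362, 356 and 348 CPM (WT-TGF), 240.4, 231 and 235 CPM (KO-SD) and 415, 405 and 417 CPM (KO-TGF). Creb3l1 moved the other way between the genotypes, higher in KO by 0.10 in SD (edgeR adjusted p = 0.00138) and 0.21 under TGF-β (adjusted p = 1.16e-08), and its log2 response was 0.70 in WT and 0.81 in KO (adjusted p = 0.0189 for the difference, lost in 5 of 18 alternatives). The call in SD was lost with scaling by library size alone. Xbp1 (NCBI gene 22433, chromosome 11, 5520641 to 5525993), the factor made active when IRE1 splices its RNA, was at 84.4, 86.2 and 85.6 CPM (WT-SD), 173, 170.3 and 168 CPM (WT-TGF), 94.3, 93.7 and 90.5 CPM (KO-SD) and 189.7, 199 and 196 CPM (KO-TGF). Its total level rose by 0.996 (SE 0.0297) in WT and 1.07 (SE 0.0295) in KO, and counts per gene do not show the splicing. It was higher in KO by 0.12 in SD (edgeR adjusted p = 0.00162, lost with scaling by library size alone) and 0.19 under TGF-β (adjusted p = 6.63e-07).

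The 3 sensors had smaller responses than Xbp1, Creb3l1 and Creb3l2. Ern1 was at 30.7, 31.3 and 30.99 CPM (WT-SD), 43.1, 42.7 and 45.5 CPM (WT-TGF), 28.5, 27.7 and 31.3 CPM (KO-SD) and 47.1, 42.5 and 42.7 CPM (KO-TGF). It rose by 0.50 in WT and 0.60 in KO, and the genotypes overlapped in SD (-0.09, edgeR adjusted p = 0.17, called lower if KO-SD replicate 3 is left out or library size alone is the scale) and under TGF-β (0.01, adjusted p = 0.868). Atf6 was at 98.2, 99.3 and 101 CPM (WT-SD), 123, 124 and 118 CPM (WT-TGF), 121, 118 and 122 CPM (KO-SD) and 148, 153 and 149 CPM (KO-TGF). Its response was 0.30 in WT and 0.32 in KO, and it was higher in KO by 0.27 (edgeR adjusted p = 5.53e-09) and 0.30 (adjusted p = 6.30e-10). Its ranges in KO-SD and WT-TGF overlapped. Eif2ak3, which encodes PERK, was at 51.9, 56.9 and 55.8 CPM (WT-SD), 64.6, 69.4 and 68.1 CPM (WT-TGF), 56.4, 53.7 and 54.4 CPM (KO-SD) and 71.2, 70.2 and 74.3 CPM (KO-TGF). It rose by 0.30 in WT and 0.39 in KO, and neither difference between the genotypes was called (-0.00093 in SD, edgeR adjusted p = 0.988, and 0.09 under TGF-β, adjusted p = 0.0524), although under TGF-β the libraries did not overlap and 8 of the 19 alternatives called it.

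The translocon genes rose together, with a median log2 response of 0.91 in WT and 0.85 in KO, while 36.0% and 34.9% of all genes rose. All 4 were higher in KO in both conditions, against 30.9% of all genes in SD and 27.3% under TGF-β. Serp1 (RAMP4), a small protein at the translocon, rose from 158 ± 1.49 to 308 ± 10.7 CPM in WT (± standard deviation, n = 3) and from 214 ± 12.1 to 422 ± 3.93 CPM in KO, and was higher in KO by 0.44 and 0.45. Sec61a1 and Sec61b, subunits of the channel, rose by 0.81 and 0.99 in WT and by 0.82 and 0.89 in KO, and were higher in KO by 0.25 and 0.36 in SD and 0.26 and 0.26 under TGF-β. Ssr1, a subunit of the translocon-associated complex, rose by 0.85 in WT and 0.74 in KO, a difference called with edgeR (adjusted p = 0.0398) and lost in 11 of 18 alternatives, and was higher in KO by 0.32 and 0.22. The KDEL receptors return escaped chaperones from the Golgi to the ER, and both were among the stronger responders. Kdelr2 rose by 0.93 in WT and 0.87 in KO and was higher in KO by 0.50 in SD and 0.44 under TGF-β. Kdelr3, with a UPRE core in its window, rose by 0.91 and 0.78 and was higher in KO by 0.45 and 0.32.

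The 5 genes of COPII export rose in both genotypes, as 36.0% of all genes did in WT and 34.9% in KO. Their median log2 fold change was 0.57 in WT and 0.45 in KO. Of these, 4 were higher in KO in SD and all 5 under TGF-β, against 30.9% and 27.3% of all genes. Sec24d (NCBI gene 69608, chromosome 3, 123264801 to 123365641) encodes the cargo adaptor that skeletal cells need for procollagen. It was at 138, 137 and 142 CPM (WT-SD), 265, 255 and 257 CPM (WT-TGF), 204, 204 and 205 CPM (KO-SD) and 330.3, 341 and 344 CPM (KO-TGF). No groups overlapped. Sec24d rose 1.87-fold in WT (log2 fold change 0.90, SE 0.0271, edgeR adjusted p = 3.78e-23) and 1.66-fold in KO (0.73, SE 0.0262, adjusted p = 3.06e-21). It was higher in KO by 0.56 in SD and 0.39 under TGF-β, and the response in KO minus that in WT was -0.17 (adjusted p = 0.000768). Its partner in the inner coat, Sec23a, rose by 0.74 and 0.71 and was higher in KO by 0.24 and 0.20. Sec31a of the outer coat rose by 0.47 and 0.41, and Sar1a, the GTPase that starts the coat, by 0.56 and 0.45. In KO they were higher by 0.22 and 0.26 in SD and by 0.16 and 0.14 under TGF-β, where scaling by library size alone called neither. Mia3, which encodes TANGO1, was at 183, 189 and 177 CPM (WT-SD), 210.4, 216 and 216 CPM (WT-TGF), 187, 185 and 186 CPM (KO-SD) and 238, 234 and 229 CPM (KO-TGF). It had the smallest response of the COPII genes, 0.23 (SE 0.0273, edgeR adjusted p = 1.26e-08) in WT and 0.33 (SE 0.0274, adjusted p = 5.05e-12) in KO. The genotypes overlapped in SD (0.02, adjusted p = 0.467), and KO was higher under TGF-β (0.12, adjusted p = 0.000275, lost with scaling by library size alone).

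**Figure D5:**
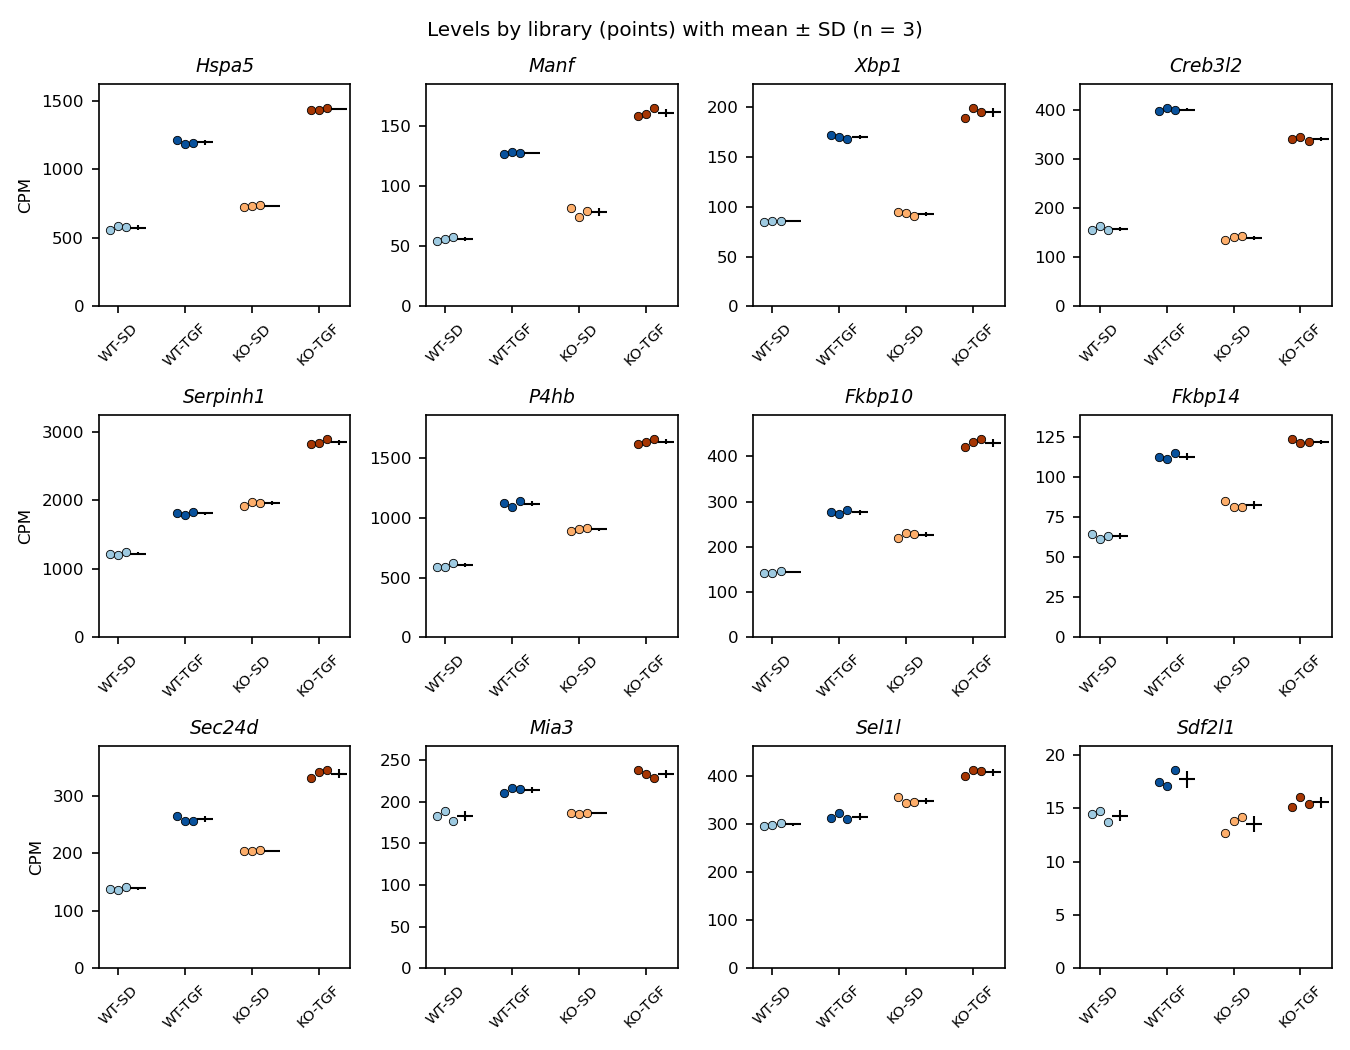
CPM in each library (points) for 12 of the genes in the 4 groups, each panel with its own y axis from 0, and the mean with standard deviation bars (n = 3) to the right of the points. Serpinh1 in KO-SD lies above WT-TGF, Creb3l2 is lower in KO than in WT at either treatment, and the genotypes are closer under TGF-β than in SD for Fkbp14.

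Where paralogs of these genes were counted, the responses often differed between them. These relatives were picked after their values were seen. Sec24d rose by 0.90 on the log2 scale in WT, against 0.54 for Sec24a, 0.22 for Sec24c and 0.12 for Sec24b. In SD, Sec24d was higher in KO by 0.56 and Sec24a by 0.24, while Sec24b and Sec24c were not called. Sec23b rose by 0.88 and Sec23a by 0.74 in WT, and Kdelr1 rose by 0.35, against 0.93 and 0.91 for Kdelr2 and Kdelr3. Atf6b, a relative of Atf6, fell with TGF-β, with log2 fold changes of -0.34 in WT and -0.40 in KO, whereas Atf6 rose. These contrasts between paralogs were not tested.

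Beyond the 40 genes, 85 other genes of the same pathway were read from a list that holds the remaining translocon, glycosylation, folding, degradation, stress and COPII genes. Of these 77 were tested. With TGF-β, 63 rose and 9 fell in WT and 64 rose and 6 fell in KO, against 36.0% and 36.4% of all genes in WT and 34.9% and 39.1% in KO, with medians of 0.42 and 0.43. In KO against WT, 50 were higher and 3 lower in SD, against 30.9% and 25.2% of all genes, and 53 were higher and 4 lower under TGF-β, against 27.3% and 27.8%. Scaling by library size alone gave 15 lower in SD, and 34 higher and 17 lower under TGF-β. The largest rises with TGF-β were those of Fkbp11, from 1.93 ± 0.518 to 6.22 ± 0.430 CPM in WT, and Pdia5, from 15.8 ± 0.0200 to 41.8 ± 0.548 CPM. Both belong to families of ER folding enzymes, the FK506-binding proteins and the disulfide isomerases. The largest falls were those of Atf6b and Sil1 (-0.23) in WT and of Atf6b and Mbtps1 (-0.22), which encodes the site 1 protease that cleaves ATF6, in KO. Of the 7 genes tested for the output of the PERK arm, 5 were higher in KO in SD and all 7 under TGF-β, with medians of 0.51 and 0.70, against 30.9% and 27.3% of all genes. The largest differences between the genotypes in the list were those of Trib3 and Chac1, in both conditions. Trib3, an inhibitor of Akt induced by ATF4 and CHOP, was at 10.1, 10.02 and 10.1 CPM (WT-SD), 19.9, 21.9 and 23.8 CPM (WT-TGF), 31.5, 36.7 and 36.9 CPM (KO-SD) and 57.3, 62.1 and 62.1 CPM (KO-TGF). Chac1, a glutathione-degrading enzyme induced by ATF4, was at 7.87, 6.85 and 8.01 CPM (WT-SD), 18.9, 16.7 and 15.02 CPM (WT-TGF), 14.4, 15.9 and 16.2 CPM (KO-SD) and 35.7, 39.2 and 38.3 CPM (KO-TGF). No groups of Trib3 overlapped, and for Chac1 only WT-TGF and KO-SD did. Atf4, the factor of this arm, rose by 0.98 in WT and 0.85 in KO and was higher in KO by 0.51 and 0.39, with an interaction of -0.13 (edgeR adjusted p = 0.0116). Ddit3, which encodes CHOP, was at 33.3, 37.6 and 35.1 CPM (WT-SD), 34.2, 32.1 and 29.5 CPM (WT-TGF), 50.3, 53.2 and 56.6 CPM (KO-SD) and 50.7, 53.05 and 51.8 CPM (KO-TGF). With TGF-β, Ddit3 was called lower in WT, with overlapping libraries (-0.14, edgeR adjusted p = 0.0218), and was not called in KO (-0.04, adjusted p = 0.448). Between the genotypes it was higher in KO by 0.59 in SD (adjusted p = 2.17e-11) and 0.70 under TGF-β (adjusted p = 1.81e-12).

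Spcs3, a subunit of the signal peptidase, was lower in KO, with log2 fold changes of -0.19 in SD and -0.14 under TGF-β, and so was Sil1, a nucleotide exchange factor of BiP, with -0.12 in SD. Under TGF-β the most negative among those called were Sec16b (-0.19), which marks ER exit sites, and Atf6b (-0.17). By the interaction, 4 of the 77 had a larger and 10 a smaller response in KO, against 8.67% and 16.6% of all genes. Ero1l, an oxidase that recharges disulfide isomerases, rose from 51.6 ± 1.82 to 76.8 ± 6.05 CPM in WT (± standard deviation, n = 3) and from 77.3 ± 1.99 to 162 ± 1.45 CPM in KO (difference 0.49, edgeR adjusted p = 1.68e-07). Ppp1r15a (GADD34) had a larger response in KO by 0.35 (adjusted p = 0.000137), and Sec16b (-0.39) and Trib3 (-0.33) had the most negative differences among those called.

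The collagen cargo was read beside the machinery, from a list of Col1a1, Col1a2, Col3a1, Col4a1, Col4a2, Col5a1, Col5a2, Col6a1, Col6a2 and Col6a3. Other collagen genes, Col4a3 and Col4a4 among them, are not on the list, so its counts do not speak for collagen as a whole. Of the 10 collagen genes, 8 rose and 1 fell with TGF-β in WT and 9 rose and 1 fell in KO, while 36.0% and 34.9% of all genes rose. KO exceeded WT for 8 in SD and for 9 under TGF-β, with 1 below WT in each, against 30.9% and 27.3% of all genes above WT. Col1a1 was at 4202, 4139 and 4506 CPM (WT-SD), 7787, 7950 and 8181 CPM (WT-TGF), 9351, 10110 and 10400 CPM (KO-SD) and 15500, 15750 and 16110 CPM (KO-TGF). No groups overlapped, and KO-SD lay above WT-TGF, the order seen for Serpinh1. Col1a2, whose chain joins that of Col1a1 in type I collagen, was at 2691, 2712 and 3077 CPM (WT-SD), 4425, 4542 and 4709 CPM (WT-TGF), 1576, 1713 and 1793 CPM (KO-SD) and 2515, 2577 and 2554 CPM (KO-TGF). It rose with TGF-β in both genotypes (0.69 and 0.59) but was lower in KO, with a log2 fold change of -0.74 in SD (edgeR adjusted p = 5.79e-17) and -0.84 under TGF-β (adjusted p = 2.12e-18), against 1.22 and 0.99 for Col1a1. Col4a1, of the basement membrane collagen, was at 3414, 3490 and 3544 CPM (WT-SD), 4804, 4766 and 4833 CPM (WT-TGF), 3485, 3704 and 3781 CPM (KO-SD) and 6185, 6304 and 6237 CPM (KO-TGF). It was called higher in KO in SD by 0.07 with overlapping libraries (edgeR adjusted p = 0.00847) and by 0.38 under TGF-β (adjusted p = 2.73e-15), with a larger response in KO by 0.31 (adjusted p = 4.85e-09).

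The presence of an element in the promoter window was set beside the responses. The 8 genes with an ERSE had a median log2 response of 0.69 in WT and 0.61 in KO, between 0.33 and 1.06 in WT, and the 25 with a window and no ERSE had medians of 0.57 and 0.54, between 0.06 and 1.34 in WT. Between genotypes the medians were 0.29 with and 0.24 without an ERSE in SD, and 0.19 in both under TGF-β. These ranges overlap widely, and no test was made of them. Creb3l2 and Xbp1, which rose more than or about as much as Hspa5, held none of the 3 elements in their windows, and Manf had no window.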

How the data were processed

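RNA-seq of 12 libraries, 3 per group, was analysed. The deposited values are whole-number read counts per gene, which the authors made from reads aligned with TopHat to mm10 and counted by strand with HTSeq on RefSeq genes. They are not normalized. Reads outside genes (10.3% to 15.4% of the entries), not uniquely placed (11.2% to 11.7%) or ambiguous (0.225% to 0.274%) were left out of library sizes, which were 19898050 to 22827706. Gene names were matched to RefSeq by symbol for 24930 of the 25230 genes listed and by an older symbol for 199 more. Exon lengths, from the union of GENCODE exons, were found for 24716 genes, and genes without a length were not tested. Genes above 1 RPKM in at least 1 library were kept. Counts were scaled by TMM and fitted for all 4 groups together in edgeR 4.0.16 (R 4.3.3, quasi-likelihood test, Benjamini-Hochberg adjustment, FDR <5%) with 5 contrasts, one of them the interaction. The common biological coefficient of variation was 0.0268. The steps were tested on simulated data. No duplicated library was found. Alternatives were DESeq2 1.42.0, library sizes without TMM, a filter of 1 CPM in 3 libraries, no filter, the likelihood ratio test, a replicate block (edgeR), fits of only the groups compared and 12 fits with a library left out.

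The 40 genes, the other lists and the tests were chosen with earlier results of these data known. Values per library are given for the 3 genes with the most positive and the 3 with the most negative change called in each contrast, the sensors and their factors, Hspa5, Serpinh1, Sec24d and Mia3. Of the other pathway genes, the 2 most positive and 2 most negative called in each contrast are named, with Atf4 and Ddit3, and Col1a1, Col1a2 and Col4a1 of the cargo. The podocyte marker list as a whole is not reported here. Promoter letters are RefSeq's on GRCm38.p6. SEs and spreads cover counting error and the differences between libraries, not between animals.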

Additional observations from a re-analysis of the deposited data

Results flagged for a closer look

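The TGF-β response differed between WT and KO MMC for 12 of the 40 genes by the interaction (edgeR's quasi-likelihood test, FDR <5%), while 16.6% of all genes tested had a smaller and 8.67% a larger response in KO. The log2 response in KO minus that in WT was -0.269 for Fkbp14, -0.208 for Creld2, -0.171 for Sec24d, -0.164 for Dnajb11, -0.153 for Calr, -0.146 for Manf, -0.118 for Sar1a, -0.114 for Pdia4 and -0.105 for Ssr1. It was 0.113 for Edem1, 0.113 for Creb3l1 and 0.153 for Sel1l. Fkbp14, Sec24d, Calr and Sel1l kept the call in all 18 alternatives. Dnajb11 lost it only without KO-TGF replicate 2 or 3, Sar1a with DESeq2 and without any KO-TGF library, Ssr1 in 11 of the 18, Edem1 in 10, Creld2 and Manf in 9, Pdia4 in 7 (DESeq2 among them) and Creb3l1 in 5.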

How the results depend on the processing

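Over the log2 fold changes of the 40 genes in the 5 contrasts, scaling by library size alone changed most, with 21 of 200 values turning sign (9 of them called with at least 1 of the scalings, 12 with neither), 12 no longer called and 10 newly called, against 6 no longer and 2 newly called with DESeq2. The 9 were Fkbp9 (-0.0962) and Sel1l (-0.0833) for TGF-β in WT, Fkbp9 (-0.137) and Sdf2l1 (-0.00561) in KO, and, in KO-TGF against WT-TGF, Hyou1 (-0.0607), Dnajb11 (-0.0675), Dnajc3 (-0.00568), Fkbp14 (-0.00611) and Syvn1 (-0.111). Under it 2 of the 40 genes fell in WT and 1 in KO, 3 were lower in KO in SD and 5 under TGF-β, and 1 response was larger and 17 smaller. Among the other pathway genes it gave 17 falls in KO, 15 lower in KO in SD, 34 higher and 17 lower under TGF-β, and 2 larger and 18 smaller responses. DESeq2 gave 1 of the 40 lower in KO under TGF-β and 4 smaller responses, and 1 other pathway gene lower in SD and 3 with smaller responses. Without a filter 1 response of the 40 was larger, and the likelihood ratio test gave 6 smaller responses of other pathway genes. The cause of these shifts was not tested.

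With a library left out, 38 to 40 genes rose in WT and 39 to 40 in KO, 32 to 33 were higher and 1 to 2 lower in KO in SD, and 31 to 33 higher and 1 to 2 lower under TGF-β. The responses called were 1 to 5 larger and 3 to 10 smaller. Of the other pathway genes 5 to 9 fell in WT, 1 to 4 were lower in KO in SD and 2 to 5 under TGF-β, and 3 to 9 responses were larger and 2 to 11 smaller. Libraries with the same replicate number deviated from their group means with correlations of -0.0262 to 0.0765, which does not settle whether the number pairs them. With the replicate number as a block, 40 genes rose in WT and in KO, 32 were higher and 1 lower in KO in SD, 33 higher and 2 lower under TGF-β, and 4 responses were larger and 13 smaller. In some pairs of groups a library correlated best with its own number, and in others it did not. With 3 libraries a group, none shown to be a separate animal, differences between animals cannot be read.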

Other observations

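The oligosaccharyltransferase adds the sugar tree that calnexin and calreticulin read. Of its 7 genes, 6 rose with TGF-β in WT and 6 in KO, with median log2 fold changes of 0.67 in both, while 36.0% and 34.9% of all genes tested rose. All 7 were higher in KO than in WT, with medians of 0.29 in SD and 0.25 under TGF-β, against 30.9% and 27.3% of all genes. Of 11 further translocon and signal peptidase genes tested, 10 rose in each genotype. Of 19 further COPII and cargo receptor genes, 18 rose in each genotype, with medians of 0.36 in WT and 0.40 in KO, and 11 were higher in KO in SD and 9 under TGF-β. Of 4 further sensors and proteases, 2 rose and 2 fell in each genotype.

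The channel subunit gene Sec61g was at means of 0.135 CPM in WT-SD, 0.268 CPM in WT-TGF, 0.189 CPM in KO-SD and 0.318 CPM in KO-TGF, so it was not tested, while its partner Sec61b was at 13.7, 27.1, 17.5 and 32.4 CPM. The prolyl isomerase gene Fkbp2 was at 0.0296 CPM in WT-SD and at 0 in the other 3 groups. Such low counts need not mean that the RNA is absent, as reads not uniquely placed, ambiguous or outside genes were left out. Whether reads of Sec61g or Fkbp2 were lost that way was not tested.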
